A study of Mus musculus with 6 samples.

Results

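The Fc gamma receptor genes of the mouse were measured by RNA sequencing of cartilage from the joints of knockout (KO) and wildtype mice. The members were the 6 genes of the deposited table named Fcgr1, Fcgr2b, Fcgr3, Fcgr4, Fcer1g and Fcgrt, out of 34709 genes, and each name was carried by a single row. There were 6 libraries, 3 with a KO label and 3 with a wildtype label. Per the study's methods the mice were 18-month-old C57BL/6J males, with wildtype littermates as controls, and the labels name no treatment. The KO line was a purchased one, and the labels do not say that each library came from a separate animal, so p-values measure only the spread between these samples, which may be technical.

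Fc gamma receptors are the surface proteins through which immune cells bind the constant part of IgG antibodies. The activating receptors Fcgr1, Fcgr3 and Fcgr4 bind IgG through their own chains but signal through Fcer1g, the common gamma chain, whose ITAM motif recruits the kinase Syk. Fcgr2b is the inhibitory counterpart, with an ITIM motif that recruits the phosphatase encoded by Inpp5d, and Fcgrt encodes the neonatal Fc receptor, an MHC class I-like chain that pairs with B2m and salvages IgG from degradation inside cells.

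Values were FPKM (the authors' fragment numbers divided by transcript length and library total) and the deposited counts, whose totals ranged from 52268311 to 63331135 per library. KO replicates 2 and 3 differed far less than any other pair of libraries (noise ratio of 5.69, where sampling alone gives 1, against 18.53 to 60.38 for the other pairs, and 1.42 against 4.63 to 15.1 if a read pair counts as 4), so they were averaged and counted as 1 sample, which left 2 KO and 3 wildtype samples. KO replicate 1 differed less from wildtype replicate 2 (noise ratio of 20.65) than from KO replicates 2 and 3 (53.74 and 51.64). The members are therefore given for every library, and their fit on the 6 libraries as labelled is given beside that on 5 samples. Of the 11 chondrocyte markers, Prg4 (402 to 1030 FPKM) was the most abundant, Col2a1 and Acan were at 12.4 to 21.3 and 13.2 to 22.8 FPKM, and Matn3 was at or near 0. The 12 neutrophil markers summed to 27100 to 62500 FPKM, and the 4 erythroid markers measured summed to 14300 to 64400 FPKM, so transcripts of blood and marrow cells far exceeded those of chondrocytes in every library labelled as cartilage.

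Fcgr1, Fcgr3 and Fcgr4 are shown by the 100 bases before their start sites, because these stretches share a short motif that the other members' promoters lacked. The capitals mark TTCCTC, the reverse complement of GAGGAA, the core of the motif bound by the myeloid factor encoded by Spi1. The sequences are from RefSeq (GRCm38.p6), 5′ to 3′ on the gene's strand. They lie at chr3:96293970-96294069 on the minus strand for Fcgr1, at chr1:171059404-171059503 on the minus strand for Fcgr3, and at chr1:171018826-171018925 on the plus strand for Fcgr4. Of the RefSeq starts of Fcgr3 the more upstream one was used, which lies inside the longer gene span of the deposited table.
Fcgr1: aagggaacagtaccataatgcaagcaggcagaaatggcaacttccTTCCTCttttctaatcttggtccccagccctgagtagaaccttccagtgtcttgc
Fcgr3: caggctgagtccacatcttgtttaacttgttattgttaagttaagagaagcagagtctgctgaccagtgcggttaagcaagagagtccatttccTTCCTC
Fcgr4: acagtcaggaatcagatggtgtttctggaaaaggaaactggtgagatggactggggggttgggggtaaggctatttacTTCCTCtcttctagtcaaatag
The motif, searched on both strands, began 55 bases before the start in Fcgr1, 6 bases before it in Fcgr3 and 22 bases before it in Fcgr4. It was absent from the 250 bases before the starts of Fcgr2b, Fcer1g and Fcgrt, although its shorter part GGAA stood within the last 100 of these bases in each. Among 32851 RefSeq promoters the full motif was present in 9.8% within 100 bases and in 23.3% within 250 bases. A match describes these letters only.

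Fcgr2b and Fcgr3 were the members whose reads could most easily be confused. Their coding sequences (1023 and 804 bases in GENCODE M21) were identical at 87.5% of 785 aligned bases, whereas the other pairs among Fcgr1, Fcgr2b, Fcgr3 and Fcgr4 reached 67.9% to 69.9%. The longest run of identical bases is printed here. It is shorter than a full read of 150 bases, so only a shortened read could lie wholly within it and match both genes equally.
Fcgr2b and Fcgr3: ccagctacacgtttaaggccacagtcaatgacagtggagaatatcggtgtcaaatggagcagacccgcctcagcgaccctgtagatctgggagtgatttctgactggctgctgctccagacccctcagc
The run was 129 bases long and crossed from exon 3 into exon 4 of the transcript used for each gene (GRCm38, minus strand). In Fcgr2b it covered chr1:170967980-170968081 and chr1:170966674-170966700, and in Fcgr3 chr1:171057691-171057792 and chr1:171054167-171054193. Windows of 50 coding bases were shared for 17.0% of Fcgr2b and 22.0% of Fcgr3, and no window of 150 bases, the length of the reads, was shared by the coding sequences. How reads matching both genes were counted was not given in the sources used here, so the split between these genes is less certain than the values of the other members.

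The members covered a wide range of levels. In wildtype cartilage Fcer1g had the highest FPKM (159 ± 12.7, SD, n = 3), followed by Fcgr3 (83.1 ± 9.5), Fcgrt (30.3 ± 2.97), Fcgr4 (20.4 ± 3.49), Fcgr2b (15.8 ± 1.25) and Fcgr1 (6.49 ± 1.61). No neighbours in this order overlapped between the wildtype libraries. Fcer1g stood above 98.8% and Fcgr3 above 97.5% of the 15373 genes that averaged 0.5 FPKM or more, and Fcgr1 stood above 57.7% of them. In KO cartilage Fcer1g (222 ± 14 FPKM, SD, n = 2) and Fcgr3 (124 ± 8.08) again led and Fcgr1 (6.06 ± 1.18) was again lowest. Fcgr4 (25.1 ± 6.52), Fcgrt (21.9 ± 3.58) and Fcgr2b (18.7 ± 3.44) overlapped between the KO libraries.

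**Figure D1:**
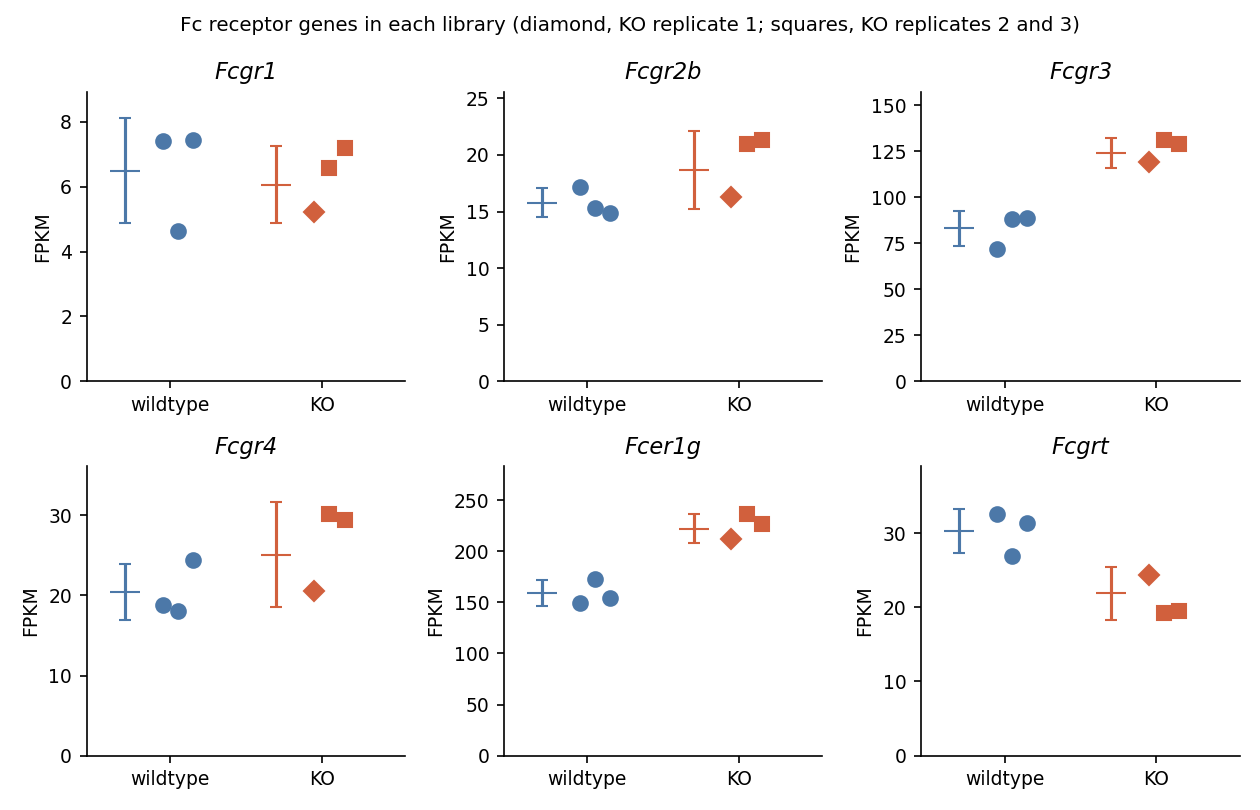
FPKM of the 6 Fc receptor genes in each library, with wildtype libraries in blue and KO libraries in orange; bars beside the points give the mean ± SD over 3 wildtype samples and 2 KO samples (KO replicates 2 and 3 averaged). Fcgr3 and Fcer1g were higher and Fcgrt was lower in all KO libraries than in any wildtype library, while the groups overlapped for Fcgr1, Fcgr2b and Fcgr4.

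The comparison of KO with wildtype addressed how the knockout altered gene expression in cartilage. Fcgr3 and its signalling chain Fcer1g were higher in all 3 KO libraries than in any wildtype library, by 1.51-fold and 1.41-fold, and Fcgrt was lower in all 3, at 0.737 of the wildtype level. No member passed an adjusted p of 0.05 in edgeR's quasi-likelihood test on 5 samples, where 0 of 15373 genes (0%) passed. At an unadjusted p under 0.05 in that test, 2 members were higher and 1 was lower, against 7.63% and 6.07% of all tested genes. DESeq2 on the same 5 samples called 2 members higher (Fcgr3 and Fcer1g), against 3.45% of all genes called higher and 2.27% called lower. With the 6 libraries as labelled, edgeR called 1 member, Fcgr3, against 2.46% of all genes called higher and 1.25% called lower. Without overlap between the groups, 2 members were higher and 1 was lower in KO, where 11.3% and 13.7% of all tested genes did the same. The median log2 difference of the 6 members was 0.28 (0.34 with 6 libraries), against -0.016 over all tested genes.

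Fcgr3, the low-affinity activating receptor (chr1:171051174-171064935, minus strand, ENSMUSG00000059498), was the most abundant receptor that binds IgG itself. It was at 119, 131 and 129 FPKM in KO replicates 1, 2 and 3 and at 72.1, 88.4 and 88.7 FPKM in wildtype replicates 1, 2 and 3. The lowest KO library thus lay above the highest wildtype library, and the KO libraries lay close together. The log2 difference was 0.59 (SE 0.153), with an edgeR p of 0.00571 and an adjusted p of 0.186. The adjusted p was 0.0153 in DESeq2 and 0.0444 in edgeR with the 6 libraries as labelled, where the log2 difference was 0.60. With KO replicate 1 as the only KO sample the log2 difference was also 0.59. Without KO replicate 1 it was 0.61, so the size of the difference did not depend on which KO libraries were used.

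Fcgr4 (chr1:171018920-171029761, plus strand, ENSMUSG00000059089), an activating receptor found on monocytes, macrophages and neutrophils, was at 20.5, 30.1 and 29.4 FPKM in the KO libraries. It was at 18.8, 18 and 24.4 FPKM in the wildtype libraries. KO replicates 2 and 3 lay above all wildtype libraries, but KO replicate 1 lay below wildtype replicate 3. The log2 difference of 0.31 (SE 0.197) had an adjusted p of 0.577 in edgeR, and it was 0.38 with an adjusted p of 0.242 for the 6 libraries as labelled. It was 0.51 without KO replicate 1 and 0.09 without KO replicates 2 and 3, so its size depended on which KO libraries were used.

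Fcgr1 (chr3:96282909-96293969, minus strand, ENSMUSG00000015947), the high-affinity receptor that binds single IgG molecules, was the scarcest member. It was at 5.22, 6.59 and 7.2 FPKM in the KO libraries and at 7.41, 4.63 and 7.43 FPKM in the wildtype libraries. The groups overlapped fully, with the lowest value in wildtype replicate 2. The log2 difference was -0.08 (SE 0.231, adjusted p of 0.941 in edgeR), and -0.03 with an adjusted p of 0.942 for the 6 libraries as labelled. It changed sign when KO replicate 1, wildtype replicate 1 or wildtype replicate 3 was left out. The deposited counts behind it were 725 to 1312 per library.

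Fcer1g (chr1:171229572-171234365, minus strand, ENSMUSG00000058715), the signalling chain, was at 212, 236 and 227 FPKM in the KO libraries and at 149, 173 and 154 FPKM in the wildtype libraries. The groups did not overlap. The log2 difference was 0.50 (SE 0.139), with an edgeR p of 0.00845 and an adjusted p of 0.202. The adjusted p was 0.0257 in DESeq2 and 0.0504 in edgeR with the 6 libraries as labelled. The log2 difference was 0.50 with KO replicate 1 as the only KO sample and 0.51 without that replicate.

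The gamma chain and the receptors that need it stood in a similar proportion in both groups. Fcer1g FPKM divided by the summed FPKM of Fcgr1, Fcgr3 and Fcgr4 was 1.47, 1.41 and 1.38 in KO and 1.52, 1.56 and 1.28 in wildtype libraries, with the KO values lying within the wildtype range. Tyrobp, a related ITAM adaptor used by other myeloid receptors, was at 703, 549 and 556 FPKM in KO and 394, 557 and 465 FPKM in wildtype libraries. Its log2 difference was 0.43, with an adjusted p of 0.474 in edgeR, and its groups overlapped. The ratio of Fcer1g to Tyrobp was highest in KO replicates 2 and 3 (0.43 and 0.409) and lowest in KO replicate 1 (0.301), with the wildtype libraries between (0.311 to 0.379).

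Fcgr2b (chr1:170958617-170976547, minus strand, ENSMUSG00000026656), the inhibitory receptor of B cells and myeloid cells, was at 16.3, 21.0 and 21.3 FPKM in the KO libraries. It was at 17.2, 15.3 and 14.9 FPKM in the wildtype libraries. KO replicate 1 lay within the wildtype range and KO replicates 2 and 3 lay above it. The log2 difference of 0.26 (SE 0.133) had an adjusted p of 0.467 in edgeR and 0.397 in DESeq2, and it was 0.30 with an edgeR adjusted p of 0.152 for the 6 libraries as labelled. It was 0.13 with KO replicate 1 as the only KO sample and 0.39 without it.

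The balance of activating to inhibitory receptors was taken as the summed FPKM of Fcgr1, Fcgr3 and Fcgr4 over that of Fcgr2b. It was 8.85, 7.99 and 7.75 in the KO libraries and 5.71, 7.27 and 8.09 in the wildtype libraries. KO replicate 1 was highest and wildtype replicate 1 lowest, and the groups overlapped. The means were 8.36 ± 0.691 (SD, n = 2) and 7.02 ± 1.21 (SD, n = 3), and the exact two-sided permutation test over samples gave a p of 0.4, where the smallest p possible for 2 against 3 samples is 0.2. On the log2 scale the difference was 0.26, and 0.35 for Fcgr3 alone and 0.05 for Fcgr4 alone over Fcgr2b. Fcgr3 made up 68.9% to 73.8% of the FPKM of the 4 IgG-binding receptors in KO and 62.4% to 70.0% in wildtype libraries, and Fcgr2b 10.2% to 11.4% and 11.0% to 14.9%. The summed level of these receptors was 161, 189 and 187 FPKM in KO and 116, 126 and 135 FPKM in wildtype libraries, which did not overlap.

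**Figure D2:**
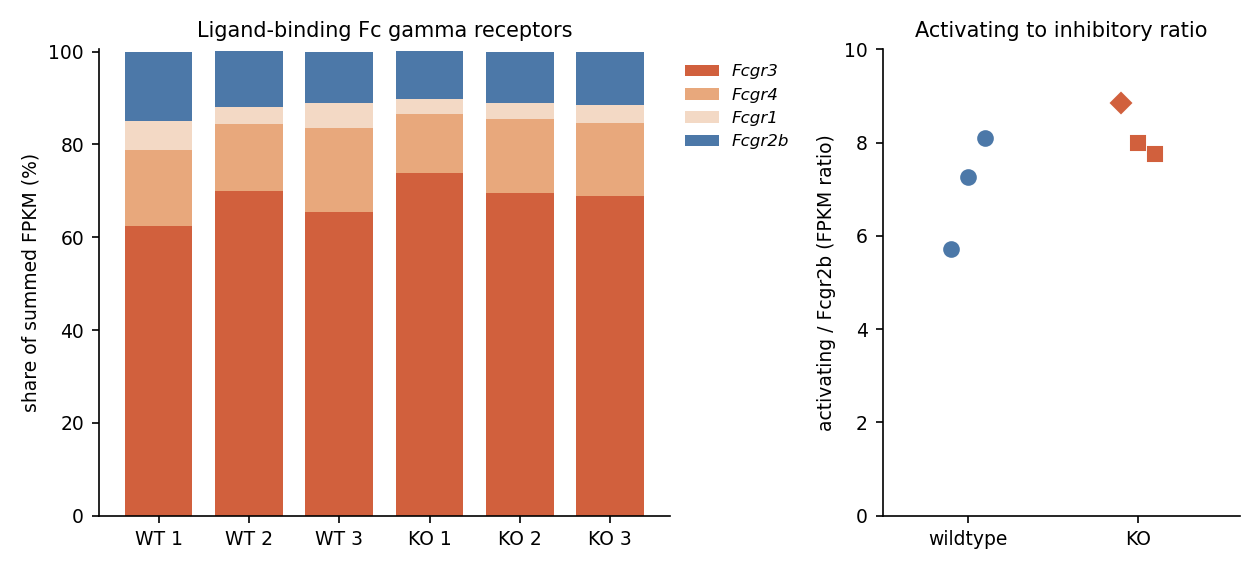
Left, share (%) of the summed FPKM of the 4 IgG-binding receptors taken by each gene in each library; right, ratio of summed activating receptor FPKM (Fcgr1, Fcgr3, Fcgr4) to Fcgr2b FPKM, 1 point per library (the diamond is KO replicate 1). Fcgr3 held 62.4% to 73.8% in all libraries, and the ratios of the groups overlapped between 7.75 and 8.09.

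Fcgrt (chr7:45092990-45103851, minus strand, ENSMUSG00000003420), the IgG-salvaging receptor, was lower in KO than in wildtype cartilage. It was at 24.4, 19.2 and 19.5 FPKM in the KO libraries and at 32.5, 26.9 and 31.4 FPKM in the wildtype libraries. All KO libraries lay below all wildtype libraries, with KO replicate 1 nearest to them. The log2 difference was -0.44 (SE 0.164), with an edgeR p of 0.0311 and an adjusted p of 0.306, and it was -0.52 with an adjusted p of 0.0838 for the 6 libraries as labelled. It was -0.23 with KO replicate 1 as the only KO sample and -0.68 without that replicate. B2m, the chain with which Fcgrt pairs, was at 1060, 945 and 976 FPKM in KO and 1180, 992 and 1060 FPKM in wildtype libraries, with a log2 difference of -0.07 (adjusted p of 0.937 in edgeR). B2m exceeded Fcgrt 43.3-fold to 50.0-fold in KO and 33.8-fold to 36.9-fold in wildtype libraries.

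**Figure D3:**
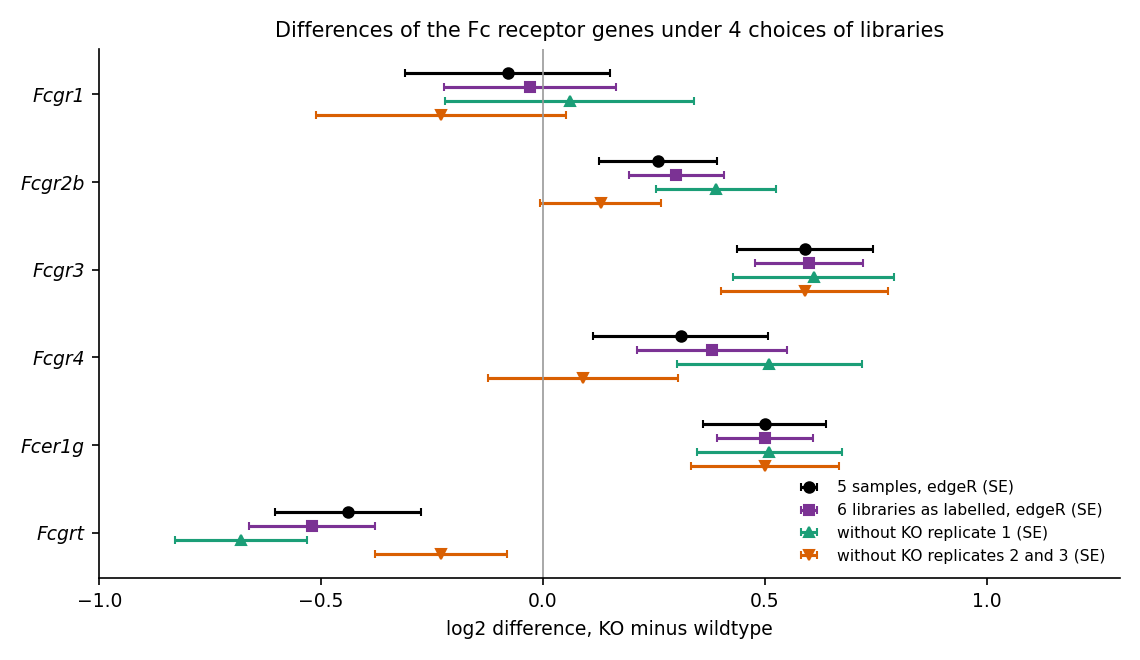
Log2 difference (KO minus wildtype) of each Fc receptor gene with its standard error, for edgeR fits on the 5 samples, on the 6 libraries as labelled, without KO replicate 1, and without KO replicates 2 and 3; in the last 2 fits the lone KO sample is assumed to vary like the wildtype samples. Fcgr3 stayed between 0.59 and 0.61 and Fcer1g between 0.50 and 0.51, whereas Fcgr4 ranged from 0.09 to 0.51 and Fcgrt from -0.68 to -0.23.

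Antisense or nested genes overlapped 3 of the members. Gm45669 overlapped Fcgrt with 0 to 10 counts per library, Gm38204 overlapped Fcgr2b with 0 to 3 counts, and the small nuclear RNA gene Gm26110 within Fcgr4 had 0 to 1 count. Counts of the members in question were 1368 or more in every library, so reads given to these neighbours were few beside those of the receptors. Whether counting used the strand was not stated in the sources used here.

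The IgG constant genes, which encode the part of the antibody that these receptors bind, had larger log2 differences than the receptors. Ighg2c, the constant gene of an IgG subclass that Fcgr1, Fcgr3 and Fcgr4 bind, was at 129, 108 and 107 FPKM in KO and 40.9, 42.2 and 53.6 FPKM in wildtype libraries. Its log2 difference was 1.40 (adjusted p of 0.111 in edgeR on 5 samples, 0.0266 with the 6 libraries as labelled). Ighg2b differed by 1.77 (0.166 and 0.0503) and Ighg1 by 2.61 (0.166 and 0.0397), and the groups did not overlap in either. Ighg3 was at 7.31, 3.46 and 3.28 FPKM in KO and 19.1, 1.54 and 15.8 FPKM in wildtype libraries, with overlapping groups. Of the 4 IgG constant genes, 0 passed in edgeR on 5 samples, and 3 were higher at an unadjusted p under 0.05, against 7.63% of all tested genes. Higher calls were 2 in edgeR with 6 libraries and 3 in DESeq2, against 2.46% and 3.45% of all tested genes. The list median was 1.58 (1.13 without KO replicate 1, 1.66 without KO replicates 2 and 3). Immunoglobulin genes have close paralogs, so the split of reads among them is uncertain.

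Other Fc receptors had mostly lower values in KO, and edgeR called 0 of them on 5 samples (3 were lower at an unadjusted p under 0.05, against 6.07% of all genes). Lower calls were 2 in edgeR with 6 libraries and 3 in DESeq2, against 1.25% and 2.27% of all genes. Of 14 listed with B2m, 10 had enough expression to be tested, 8 of these had a negative log2 difference, and the median was -0.45. This median depended on single libraries, with -0.20 without wildtype replicate 1 and -0.76 without KO replicate 1, and it was -0.18 without KO replicates 2 and 3. Fcmr, the IgM receptor, was at 7.39, 4.74 and 5.76 FPKM in KO and 17.9, 13.3 and 16.3 FPKM in wildtype libraries (log2 difference -1.29). Fcrla, an intracellular Fc receptor-like protein of B cells, was at 10.7, 7.64 and 7.5 FPKM in KO and 22.2, 22.0 and 20.5 FPKM in wildtype libraries (log2 difference -1.21). Both had an edgeR adjusted p of 0.166 on 5 samples and 0.0358 with 6 libraries. Fcer2a, the low-affinity IgE receptor of B cells, differed by -1.35 (0.265 and 0.0883). The groups did not overlap in these 3 genes, and 7 of the 7 B cell markers were lower without overlap as well (13.7% of all tested genes were), summing to 81.7 to 130 FPKM in KO and 261 to 290 FPKM in wildtype libraries; the part of B cell content in these differences was not tested.

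Of 24 genes that carry the activating signal, 0 passed in edgeR on 5 samples (11 were higher and 1 lower at an unadjusted p under 0.05, against 7.63% and 6.07% of all genes) and 5 were called higher and 0 lower with 6 libraries, against 2.46% and 1.25% (among them Fgr, Card9, Rac2 and Was). Fgr, a Src-family kinase of myeloid cells, differed by 0.81 on the log2 scale. It was at 43.3, 62.4 and 64.7 FPKM in KO and 28.6, 31.0 and 32.3 FPKM in wildtype libraries. Card9, an adaptor downstream of ITAM receptors, was at 35.7, 51.1 and 52.9 FPKM in KO and 22.2, 26.5 and 24.7 FPKM in wildtype libraries (log2 difference 0.85). In both Fgr and Card9 the lowest KO library lay above the highest wildtype library, and the edgeR adjusted p was 0.166 on 5 samples and 0.0358 with 6 libraries. Syk, the kinase recruited by the ITAM, was at 27.5, 39.9 and 41.1 FPKM in KO and 37.8, 31.1 and 32.3 FPKM in wildtype libraries, and its log2 difference was 0.02 (adjusted p of 0.983 in edgeR). The median of the list was 0.33 (0.52 without KO replicate 1, 0.16 without KO replicates 2 and 3), and 11 of 24 genes were higher without overlap, against 11.3% of all tested genes.

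Of 9 genes that carry the inhibitory signal, 0 passed in either edgeR fit or in DESeq2. At an unadjusted p under 0.05 in edgeR on 5 samples, 3 were higher and 0 lower, against 7.63% and 6.07% of all tested genes. The 3 were Ptpn6, Dok3 and Cbl, with log2 differences of 0.48, 0.39 and 0.56. Inpp5d, the phosphatase that Fcgr2b recruits, was at 13.2, 19.7 and 20.4 FPKM in KO and 17.3, 12.9 and 14 FPKM in wildtype libraries (log2 difference 0.19, adjusted p of 0.751). The median of the list was 0.07, and between 0.03 without wildtype replicate 1 and 0.20 without KO replicate 1, against -0.01 without KO replicates 2 and 3.

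Other ITIM receptors, which like Fcgr2b dampen cell activation, split by direction. Of 11, edgeR with 6 libraries called 4 higher and 2 lower, against 2.46% and 1.25% of all genes. On 5 samples 0 passed in edgeR, and 8 were higher and 2 lower at an unadjusted p under 0.05, against 7.63% and 6.07% of all genes. Pirb and Siglece, receptors of myeloid cells, were at 64.2, 99.3 and 100 FPKM and at 31.9, 48.2 and 49.3 FPKM in KO, against 43.3 to 46.4 FPKM and 20.2 to 21.9 FPKM in wildtype libraries (log2 differences 0.89 and 0.95). Cd72, a receptor of B cells, was at 8.93, 9.43 and 9.16 FPKM in KO and 24, 20.7 and 18.9 FPKM in wildtype libraries (log2 difference -1.20, edgeR adjusted p of 0.111 on 5 samples and 0.0141 with 6 libraries). The second receptor called lower was Cd22, which is also a B cell receptor.

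Among 10 adaptors and receptors that couple to Fcer1g or a related adaptor, edgeR called 0 on 5 samples. With 6 libraries it called 1 higher and 0 lower, against 2.46% and 1.25% of all tested genes. The gene called was Clec4e, a receptor for mycobacterial glycolipid that needs Fcer1g. Clec4e was at 12.1, 20.0 and 19.5 FPKM in KO and 7.35, 8.7 and 7.57 FPKM in wildtype libraries (log2 difference 1.02, adjusted p of 0.166 on 5 samples and 0.0358 with 6 libraries). Pira2 and Ncr1 differed by 0.40 and -0.70 without passing in either edgeR fit. DESeq2 called Clec4e and Pira2 higher (adjusted p of 0.0011 and 0.0453), where 3.45% of all tested genes were called higher. With 5 genes higher and 5 lower, the list median was 0.15, and between -0.02 without KO replicate 1 and 0.29 without wildtype replicate 2. It was 0.41 without KO replicates 2 and 3.

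Of 12 tested regulators of Fc receptor expression, 0 passed in edgeR on 5 samples. At an unadjusted p under 0.05 in that fit, 4 were higher and 0 lower, against 7.63% and 6.07% of all tested genes. With 6 libraries edgeR called Spi1 and C5ar1 higher and none lower, against 2.46% and 1.25% of all tested genes. The list median was 0.21 (0.07 without KO replicates 2 and 3). Spi1, the myeloid transcription factor whose motif core is marked in the 3 promoters printed above, was at 71.8, 89.1 and 90.2 FPKM in KO and 44.6, 51.5 and 50.7 FPKM in wildtype libraries (log2 difference 0.73, adjusted p of 0.166 and 0.0358). C5ar1, the receptor for complement C5a, was at 23.1, 38.9 and 38.8 FPKM in KO and 15.3, 18.5 and 18 FPKM in wildtype libraries (0.85, 0.177 and 0.0433). The groups did not overlap in either gene. Stat6 differed by 0.37 (adjusted p of 0.304 on 5 samples).

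Markers of the cells that carry these receptors differed in direction between cell types. All 12 neutrophil markers had higher values in KO, with a median log2 difference of 0.86, and 11 did not overlap between groups, against 11.3% of all tested genes that were higher without overlap. Of these markers edgeR called 0 on 5 samples, where 8 were higher at an unadjusted p under 0.05 (7.63% of all genes), and 5 higher with 6 libraries (2.46% of all genes). Their summed level was 51100 to 62500 FPKM in KO and 27100 to 43800 FPKM in wildtype libraries, and none was at 0. Cxcr2, a neutrophil chemokine receptor, was at 59.5, 110 and 118 FPKM in KO and 43.5 to 45.3 FPKM in wildtype libraries (0.96, adjusted p of 0.175 on 5 samples and 0.0433 with 6 libraries). Prtn3 and Mmp8, proteins of neutrophil granules, differed by 1.15 and 0.96. Of 14 monocyte and macrophage markers tested, 6 were higher and 8 lower, with a median of -0.23 (-0.39 without KO replicate 1, -0.05 without KO replicates 2 and 3) and sums of 5600 to 7650 FPKM in KO and 3480 to 5420 FPKM in wildtype libraries, most of it Lyz2, which neutrophils also express. At an unadjusted p under 0.05 in edgeR on 5 samples, 1 was higher and 3 were lower, against 7.63% and 6.07% of all genes. The 3 were Mrc1, Cd163 and Siglec1, receptors of resident macrophages, with log2 differences of -0.75, -0.73 and -1.06. The higher one was Ccr2 (0.69), at 29.2, 62.4 and 63.9 FPKM in KO and 28.2, 30.1 and 27.7 FPKM in wildtype libraries, with overlapping groups. Of the list, edgeR called 0 on 5 samples and Mrc1 alone with 6 libraries (adjusted p of 0.0371), while DESeq2 called 2, Mrc1 and Cd163. Of all tested genes, 1.25% were called lower by edgeR with 6 libraries and 2.27% by DESeq2. Csf1r, which defines the lineage, differed by 0.02. The part of neutrophil and macrophage content in the differences of Fcgr3, Fcer1g and Fcgrt was not tested, and in bulk tissue fewer cells of a type cannot be told apart from less RNA per cell.

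**Figure D4:**
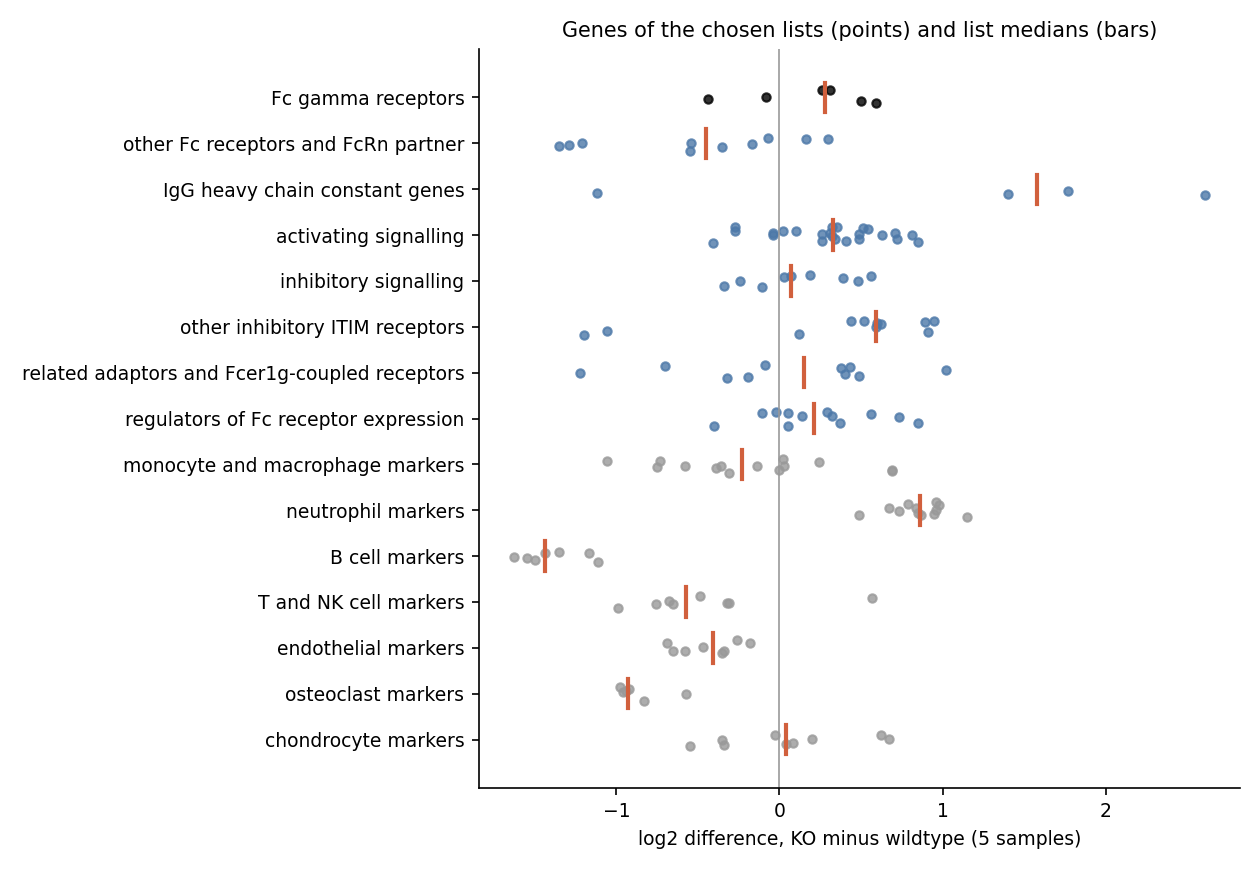
Log2 difference (KO minus wildtype, 5 samples) of every tested gene of the Fc receptor, ligand, signalling and cell marker lists, 1 point per gene with the list median as an orange bar; the Fc gamma receptors are in black and marker lists in grey. The Fc gamma receptors ran from -0.44 (Fcgrt) to 0.59 (Fcgr3), with a median of 0.28. The medians of the lists drawn ran from -1.44 (B cell markers) to 1.58 (IgG constant genes).

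Of 7 B cell markers, edgeR called 0 on 5 samples, where 7 were lower at an unadjusted p under 0.05 (6.07% of all genes). With 6 libraries edgeR called 6 lower and DESeq2 on 5 samples called 7 lower, against 1.25% and 2.27% of all genes. Of the marker lists other than those of neutrophils, monocytes and macrophages, and B cells, edgeR called 0 genes in either fit. DESeq2 called 3.45% of all tested genes higher and 2.27% lower. In these lists it called 1 of 8 T and NK cell markers higher and 1 lower, and 2 of 4 erythroid markers lower. The median log2 differences of the lists were -0.57 for 8 T and NK cell markers, -0.05 for 5 dendritic cell markers tested (-0.18 without wildtype replicate 1 and -0.00278 without wildtype replicate 3) and -0.26 for 4 megakaryocyte markers (-0.13 without wildtype replicate 2). The median of 5 mast cell, basophil and eosinophil markers was -0.01, and between -0.24 without wildtype replicate 3 and 0.29 without wildtype replicate 1. The median was -0.41 for 8 endothelial markers, a cell type in which Fcgrt is known to be active, and the sums of those markers (27.8 to 29.1 FPKM in KO and 27.4 to 47.9 FPKM in wildtype libraries) overlapped. For 6 osteoclast markers it was -0.93 (-0.44 without wildtype replicate 1) and for 4 erythroid markers -0.95 (-1.57 without KO replicate 1). For 6 osteoblast and osteocyte markers it was -0.40 (-0.99 without KO replicate 1, -0.22 without wildtype replicate 1). The medians of 9 chondrocyte markers (0.04, but -0.60 without KO replicate 1) and of 4 muscle markers (-0.67, but -6.72 without KO replicate 1 and 0.88 without wildtype replicate 3) had no stable size.

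Genes whose FPKM followed each member most closely over the 5 samples were found among 7613 genes that averaged 5 FPKM or more, by Pearson's r of log2(FPKM + 1), which is a description over few points. Fcgr3 was followed by Gnb2, Gna15 and Rab3d (r of 0.997, 0.997 and 0.997), and 215 genes reached 0.95. Fcer1g was followed by Neu1, Igkv6-15 and C1galt1c1 (0.999, 0.998 and 0.998), with 276 genes at 0.95 or more. Fcgr1 was followed by Adar, Gm42715 and Trim30d (0.999, 0.996 and 0.992), Fcgr2b by Bcl10, Rab21 and Casp4 (0.998, 0.998 and 0.997) and Fcgr4 by Gm2260, Gtpbp1 and Stat5b (0.998, 0.996 and 0.996). Fcgrt was followed by Mark3, Fabp4 and Adipoq (0.996, 0.994 and 0.994). Fabp4 and Adipoq, genes of fat cells, were at 9.28 to 25.1 and 10.2 to 18.9 FPKM in KO and at 32.1 to 56.9 and 32.1 to 55.8 FPKM in wildtype libraries. Both were picked for following Fcgrt over these samples, so their likeness to it was fixed by that choice. The part of fat cell transcripts in the difference of Fcgrt was not tested.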

How the data were processed

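Sample titles gave the group and replicate number of each library. The targeted gene and 1 gene of the lists are not reported here. Libraries were made, per the labels, from poly(A) RNA and read as pairs of 150 bp, and the submitters' processing notes name cutadapt 1.9, HISAT2 2.0.4, UMI-tools, StringTie 1.3.4d, DESeq2 and edgeR, with no role or order. The authors deposited 1 table of 34709 genes with FPKM values and counts per library. The deposited FPKM were scaled to each library's own total, and the sources used here name no further scaling. The deposited counts were whole numbers but were treated as estimated counts, since values of 4 (6596) were more frequent than values of 3 (4170) or 5 (2332), so 1 count was not taken to be 1 read pair. Depth was 52268311 to 63331135 counts per library. If 1 count were 1 read pair, a count of 0 would allow up to 3 counts, which were 0.0574 CPM in the shallowest library. This limit covers counting error only and would be higher if a read pair gave several counts. The genome build was not given in the sources used here, and positions are as deposited.

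The 15 pairs of libraries were compared by the median squared difference of scaled counts over its Poisson expectation (genes of 200 to 5000 counts). KO replicates 2 and 3 were averaged (counts rounded), as an earlier analysis of these data had led to, and the check was repeated here. The 15373 genes that averaged 0.5 FPKM or more were tested with edgeR 4.0.16 (quasi-likelihood, TMM scaling, R 4.3.3) with Benjamini-Hochberg adjustment over all of them, and called at an adjusted p under 0.05. DESeq2 1.42.0, limma 3.58.1 (log2 of FPKM + 1 or + 0.1), the 6 libraries as labelled, other scalings and filters, a replicate block and left-out libraries were alternatives. Members, lists and tests were chosen with earlier results of these data known. The text names the 6 members, the up to 3 genes of each list with the smallest p, all IgG constant genes and B2m, and the 3 genes most like each member. Tyrobp, Syk, Inpp5d, Csf1r, Lyz2, Ccr2, Cd22, Rac2, Was, Col2a1, Acan and Matn3 were named after their values were seen. Promoters of all 6 members were found in RefSeq, and coding sequences are of GENCODE M21 (GRCm38).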

Additional observations from a re-analysis of the deposited data

How the results depend on the processing

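The number of genes called was 0 on 5 samples, 570 with the 6 libraries as labelled, 879 with DESeq2, 21 with no filter on low values and 9 without KO replicates 2 and 3 together. Leaving out 1 library at a time gave 0 to 352, the highest without KO replicate 1, where the lone KO sample is assumed to vary like the wildtype samples. The number of members called was 1 with the 6 libraries and 2 with DESeq2, against 0 on 5 samples. Fcgr3 passed in both of these (log2 difference of 0.60, adjusted p of 0.0444, in edgeR with 6 libraries, and 0.61, 0.0153, in DESeq2), and Fcer1g in DESeq2 (0.51, 0.0257). The cause of these differences between fits was not tested. Over 16 alternatives the log2 difference kept its sign in Fcgr2b (0.13 to 0.39), Fcgr3 (0.48 to 0.67), Fcgr4 (0.09 to 0.51), Fcer1g (0.44 to 0.60) and Fcgrt (-0.68 to -0.23). Fcgr1 (-0.25 to 0.06) reversed without KO replicate 1 (0.06), wildtype replicate 1 (0.00346) and wildtype replicate 3 (0.04). The adjusted p ranged from 0.0153 to 0.487 for Fcgr3, from 0.0257 to 0.547 for Fcer1g and from 0.0722 to 0.641 for Fcgrt. Without 1 library at a time the log2 difference of the activating to inhibitory ratio was 0.12 to 0.37, and it was 0.24 with 6 libraries.

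Same-numbered libraries did not deviate together (correlations of -0.207, -0.184 and 0.001), so these values gave no sign that the numbers pair the samples. They cannot exclude such pairing, because the near-duplicate KO libraries leave little independent deviation among the KO samples. With a replicate block on the 6 libraries 0 genes and 0 members were called, and the log2 differences were 0.61 for Fcgr3, 0.51 for Fcer1g and -0.53 for Fcgrt.

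Leaving out 1 library turned the sign of 4 list medians, those of the chondrocyte markers (-0.60 without KO replicate 1, -0.05 without wildtype replicate 1), the muscle markers (0.88 without wildtype replicate 3), the adaptors and Fcer1g-coupled receptors (-0.02 without KO replicate 1) and the mast cell, basophil and eosinophil markers (-0.24 to 0.29).
With 2 KO samples, differences of the size seen in Fcgr2b and Fcgr4 could not be told from the spread between libraries. In edgeR on 5 samples Fcgr3, Fcer1g and Fcgrt did not pass either (adjusted p of 0.186, 0.202 and 0.306 over all tested genes).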
